A study of Mus musculus with 6 samples.

Results

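The 36 genes described here encode nuclear-coded subunits of respiratory complexes II, III and IV and of the ATP synthase, together with the electron carrier cytochrome c. They were chosen by gene symbol, or by its newer alias, among the non-control probes of the array, and each gene was represented by its brightest probe among those well above background on at least 3 arrays. All 36 symbols were found, and they form 36 of the 21003 genes tested: 4 of complex II, 7 of complex III, 1 for cytochrome c, 10 of complex IV and 14 of the ATP synthase.

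The samples were total RNA of brain synaptosomes, the pinched-off nerve endings that form when brain tissue is homogenised, from 3 knock-in and 3 wild-type mouse samples, each hybridised to its own one-colour Agilent array. The labels do not give the allele, the strain, the age or sex of the animals, the brain region, or whether samples came from separate or pooled animals, so the p-values reflect variation among these 6 samples that may be technical. Samples named KI, and called knock-in by the study design, carry the word knock-out as their genotype. The labels give an RNA integrity number of 10 for each sample and 0.2 µg of RNA for 5 samples, and 0.0 µg for knock-in replicate 1. The 3 knock-in arrays and wild-type replicate 3 shared slide 1, and wild-type replicates 1 and 2 were on slide 2, so the main comparisons are also given within slide 1, where a single wild-type array remains. Well above background were 54.4% to 55.7% of spots in knock-in and 52.9% to 54.1% in wild type. On slide 1, the processed signal at the 75th percentile of an array was 883 to 910 in knock-in and 823 in wild-type replicate 3. On slide 2, the signal at that percentile was 578 and 580 in wild-type replicates 1 and 2. Fmr1, the gene named in the study's title, had a log2 signal, relative to that percentile, of 2.19 ± 0.10 in knock-in and 1.37 ± 0.05 in wild type (SD over 3 arrays), higher on each knock-in array, with limma's adjusted p = 0.199.

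Oxidative phosphorylation takes place in the inner mitochondrial membrane. Complex I and complex II pass electrons from NADH and succinate to ubiquinone, complex III passes them on to cytochrome c, and complex IV, cytochrome c oxidase, hands them to oxygen. Complexes I, III and IV pump protons as they do so, and the ATP synthase lets the protons back through a rotating ring to make ATP. Complex II is built from nuclear-coded subunits alone, whereas the others combine nuclear-coded subunits with subunits coded by mitochondrial DNA. Nerve terminals hold many mitochondria, whose ATP feeds the ion pumps and the synaptic vesicle cycle. The transcription factors NRF-1 and NRF-2 (GABP, of the ETS family) are known to bind the promoters of many nuclear respiratory genes.

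Promoter sequence from RefSeq (build GRCm38.p6) was at hand for 28 of the 36 genes, from 250 bases before to 50 bases after the annotated start, and is shown because shared promoter letters are a feature the choice of genes did not use. Uqcrb, Uqcrc2, Uqcrq, Cyc1, Sdhc, Cox4i1, Cox6c and Atp5a1 were not matched. The NRF-1 core GCGCANGCG, read on both strands with overlapping copies counted once per gene, lay in 11 of 28 promoters (39.3%), against 7.03% of 27025 genes. The ETS core CCGGAAG, also on both strands, lay in 11 of 28 (39.3%), against 9.93% of genes. Both cores were present in Atp5h, Atp5k, Atp5l, Cox6a1 and Sdhd, 5 of 28 (17.9%) against 1.49% of genes, and either core was present in 17 of 28 (60.7%) against 15.5%. The YY1 core AAGATGGCG was found in Atp5j and Atp5j2, 2 of 28 (7.14%) against 1.64%. These are letter matches in a window, not measured binding. The 27025 genes were not limited to the 21003 tested, and no share among genes of like signal is given. Example sites from complexes II, III and IV, cytochrome c and the ATP synthase follow, each 5′ to 3′ on the gene's own strand, with the core in capitals. On the gene's strand the cores can read in either orientation.
Sdhd, NRF-1 core, chr9:50603909-50603938, minus strand: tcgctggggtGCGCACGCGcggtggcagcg
Sdhd, ETS core, chr9:50603877-50603906, minus strand: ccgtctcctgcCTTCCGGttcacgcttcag
Uqcrc1, NRF-1 core, chr9:108936668-108936697, plus strand: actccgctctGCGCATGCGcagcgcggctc
Cycs, NRF-1 core, chr6:50566611-50566640, minus strand: catgctagctCGCATGCGCgcgcacaaacc
Cox6a1, NRF-1 core, chr5:115349101-115349130, minus strand: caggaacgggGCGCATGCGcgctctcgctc
Cox6a1, ETS core, chr5:115348956-115348985, minus strand: ccccatttccgCTTCCGGcgcgccggtgta
Atp5j2, YY1 core, chr5:145191499-145191528, minus strand: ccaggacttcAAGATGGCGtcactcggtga

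Across the 36 genes, 34 had a lower mean signal in knock-in than in wild type, but the differences were small and no gene passed the test. The median log2 difference, knock-in minus wild type, was -0.16, with a range from -0.35 in Cox7a2 to 0.13 in Cox7c, against a median of -0.05 over all 21003 genes, of which 59.2% read lower. Limma's adjusted p, taken over all genes, lay between 0.415 and 0.931 for the 36 genes, and 2 of 21003 genes (0.00952%) passed 0.05. At an unadjusted p under 0.05, 1 of the 36 read lower, Atp5a1, against 6.39% of all genes. Wholly below the wild-type arrays on each knock-in array were 16 of the 36 (44.4%), against 12.5% of all genes, and wholly above were 1, Sdha, against 7.86%. In bulk RNA, fewer mitochondria-rich endings in a preparation and less RNA per ending cannot be told apart.

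The count of genes without overlap depended on the normalization and on the arrays used. It was 10 with normexp background correction (18.9% of all genes under that setting), 4 with quantile normalization (10.1%), 5 with cyclic loess (9.42%), 5 with the authors' value table (9.58%) and 25 without knock-in replicate 1 (17.3%). The 4 genes under quantile normalization are near the share of all genes. With the authors' values, 23 of 36 genes read lower and their median was -0.03, against -0.01 over all genes. Within slide 1 the median of the 36 genes was -0.07, against -0.03 over all genes; 31 read lower, against 56.3% of all genes, and 26 lay below the single wild-type array on each knock-in array, against 36.4%. Without wild-type replicate 2 the median was -0.09, against -0.02 over all genes, and 29 read lower.

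**Figure D1:**
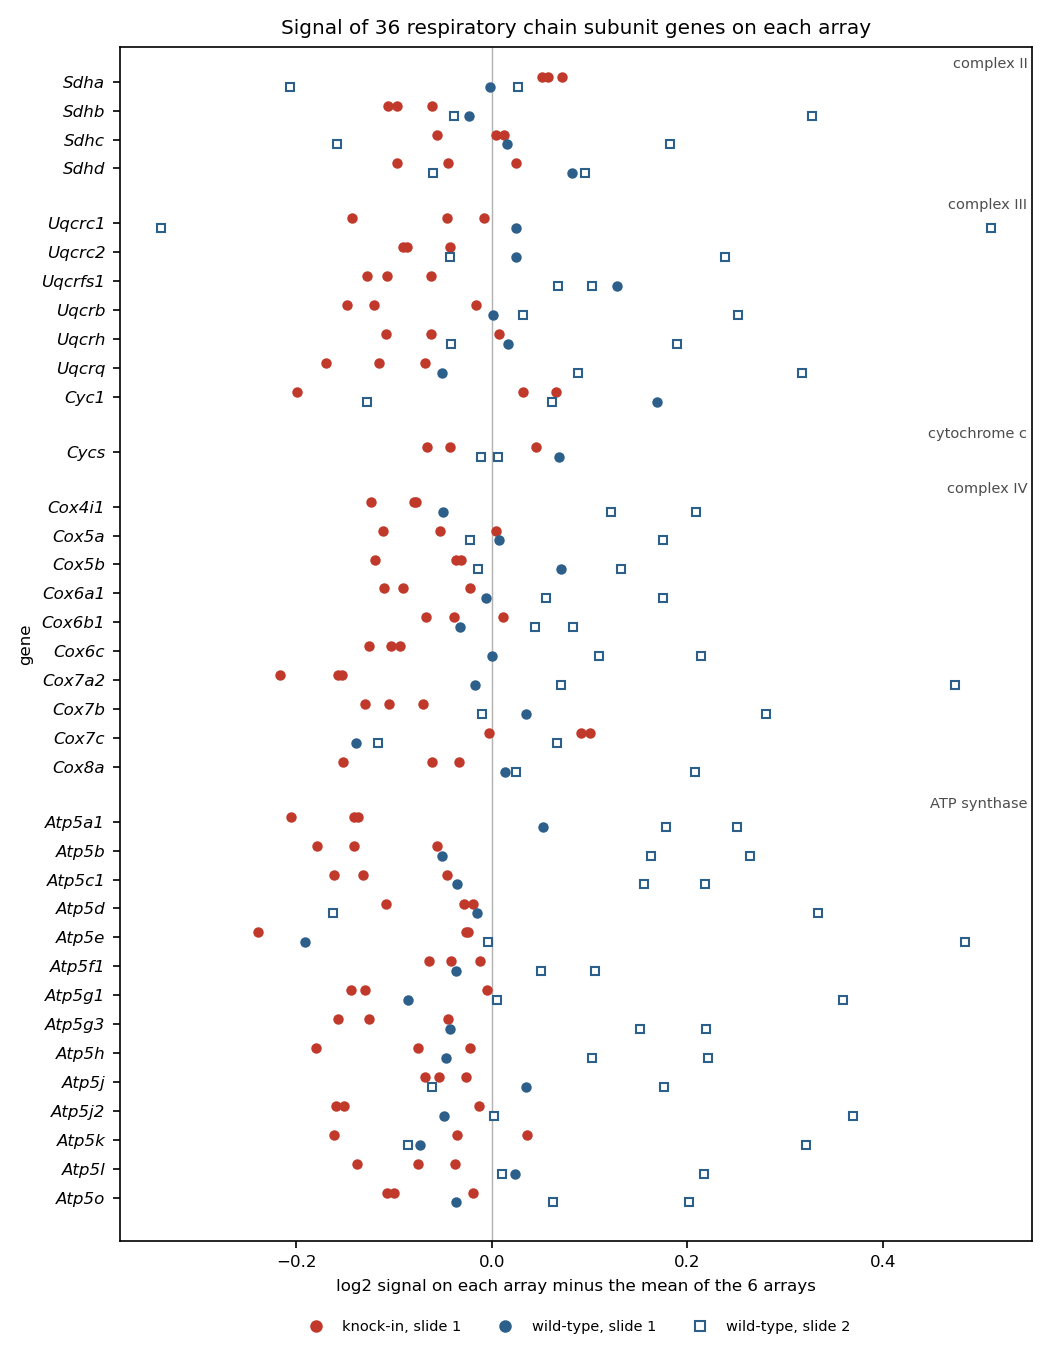
Log2 signal of each of the 36 genes on each array minus that gene's mean over the 6 arrays (horizontal axis), with genes grouped by complex down the page, the 3 knock-in arrays drawn above the 3 wild-type arrays, and open squares for the slide 2 arrays. The knock-in points lie close together, and wild-type replicate 2, one of the open squares, is the highest array for 27 of 36 genes.

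Wild-type replicate 2 was the highest array for 27 of the 36 genes, against 38.4% of all genes, and knock-in replicate 3 was the lowest for 16, against 11.9%. The knock-in arrays also lay closer together than the wild-type arrays. The knock-in arrays were all on slide 1 and the wild-type arrays on both slides, so slide and group cannot be told apart in this spread. The SD within knock-in was the smaller for 34 of 36 genes, with a median of 0.05 in knock-in and 0.13 in wild type, while over all genes knock-in had the smaller SD for 71.1%, with medians of 0.12 and 0.20. The standard errors of the 36 differences ran from 0.09 to 0.21, and limma's 95% interval left out 0 for 1 gene.

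Complex II, succinate dehydrogenase, also belongs to the citric acid cycle. Its subunits did not share a direction: 3 of 4 read lower in knock-in, and the median of -0.05 was that of all genes to 2 decimals. Sdha, the flavoprotein that oxidises succinate (probe on chromosome 13 at 74460310 to 74460369, build mm9 as in the array annotation for every probe below), read 4.95, 4.94 and 4.93 on the knock-in arrays, against 4.91, 4.68 and 4.88 on the wild-type arrays, in log2 relative to the 75th percentile. Each knock-in array was above each wild-type array, with wild-type replicate 2 far the lowest. The difference was 0.12 (SE 0.10, limma's adjusted p = 0.630), or 0.06 within slide 1.

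Sdhb, the iron-sulfur subunit (chromosome 4, 140535052 to 140535108), went the other way. It read 6.09, 6.12 and 6.08 in knock-in, against 6.14, 6.51 and 6.16 in wild type. Wild-type replicate 2 was again the outlying array, now the highest, and the groups did not overlap. The difference was -0.18 (SE 0.13, limma's adjusted p = 0.584), or -0.06 both within slide 1 and without wild-type replicate 2. Sdhd, a membrane anchor that helps hold ubiquinone (chromosome 9, 50404630 to 50404689), read 4.58, 4.45 and 4.51 in knock-in, against 4.49, 4.65 and 4.63 in wild type, with overlap (-0.08, SE 0.10, limma's adjusted p = 0.733; -0.12 within slide 1). Sdhc, the other anchor, differed by -0.03 with overlap. Its dimmer probe, not used here, differed by -0.23, wholly below wild type (-0.15 within slide 1).

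Complex III is the cytochrome bc1 complex. Its 7 genes all read lower in knock-in, from -0.24 to -0.07 with a median of -0.15, and 3 lay wholly below wild type. Of all genes, 59.2% read lower and 12.5% lay wholly below. In the brightest of 10 groups of genes by signal, these shares were 79.5% and 19.2%. Without wild-type replicate 2 the median was -0.06 and 6 of 7 read lower, with Uqcrc1 at 0.09. Uqcrfs1 encodes the Rieske iron-sulfur protein that carries electrons towards cytochrome c1 (chromosome 13, 30632363 to 30632422). It read 4.44, 4.42 and 4.49 in knock-in, against 4.62, 4.65 and 4.68 in wild type. Its arrays were tight within both groups, with SDs of 0.03 in each, and wild-type replicate 2 did not stand apart. The difference was -0.20 (SE 0.09, limma's adjusted p = 0.472), and it was -0.23 within slide 1 and -0.20 without wild-type replicate 2.

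The remaining complex III genes varied more with wild-type replicate 2. Uqcrq, the small ubiquinone-binding subunit (chromosome 11, 53242451 to 53242510), read 6.46, 6.41 and 6.36 in knock-in, against 6.62, 6.84 and 6.48 in wild type (-0.24, SE 0.12, limma's adjusted p = 0.505). Its lowest wild-type array was the one on slide 1, and the difference there was -0.07. Uqcrb, also a small subunit near the ubiquinone site (chromosome 13, 67001654 to 67001713), read 5.04, 4.93 and 4.91 in knock-in, against 5.09, 5.31 and 5.06 in wild type (-0.19, SE 0.11, limma's adjusted p = 0.524). Its groups did not overlap, and within slide 1 the difference was -0.10. The core proteins Uqcrc1 and Uqcrc2 differed by -0.13 and -0.15, the hinge protein Uqcrh by -0.11 and cytochrome c1, Cyc1, by -0.07, each with overlap. Uqcrc1 had the widest 95% interval, -0.65 to 0.38, because wild-type replicates 1 and 2 stood at 3.98 and 4.83.

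Cytochrome c, Cycs, is the small soluble protein that ferries electrons between complexes III and IV (chromosome 6, 50515092 to 50515151). It read 5.24, 5.13 and 5.15 in knock-in, against 5.20, 5.18 and 5.26 in wild type. The groups overlapped, and the difference of -0.04 (SE 0.09, limma's adjusted p = 0.846) was near the median of all genes. It was -0.09 within slide 1 and -0.10 as the mean of its 3 probes, which all read lower. Its sign turned with the normalization, to 0.03 with quantile and 0.02 with cyclic loess normalization and with the authors' table.

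Complex IV held the largest of the 36 differences over all 6 arrays, in Cox7a2, though not within slide 1 or without wild-type replicate 2, and 1 of the 2 genes that read higher, Cox7c. Of its 10 genes, 9 read lower, against 59.2% of all genes, and the median was -0.16. Wholly below wild type were 7 of the 10, against 12.5% of all genes. Cox7a2, the liver-type and widely used form of a small subunit at the edge of the enzyme (chromosome 9, 79603215 to 79603274), read 5.19, 5.25 and 5.26 in knock-in, against 5.48, 5.88 and 5.39 in wild type. The groups did not overlap, and wild-type replicate 2 stood well above the rest. The difference was -0.35 (SE 0.15, limma's adjusted p = 0.463), a 0.784-fold level with a 95% interval of the log2 difference from -0.71 to 0.003; without wild-type replicate 2 it was -0.20 and within slide 1 it was -0.16.

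Cox6c, a small nuclear-coded subunit (chromosome 15, 35861751 to 35861810), read 6.37, 6.38 and 6.35 in knock-in, against 6.58, 6.69 and 6.47 in wild type (-0.22, SE 0.10, limma's adjusted p = 0.480). The knock-in arrays were nearly level, with an SD of 0.02, and each wild-type array was above them. Cox7b, a small membrane-spanning subunit coded on chromosome X (103217154 to 103217213), read 6.11, 6.05 and 6.08 in knock-in, against 6.17, 6.46 and 6.22 in wild type (-0.20, SE 0.11, limma's adjusted p = 0.512). Both kept their sign within slide 1, at -0.11 for Cox6c and -0.14 for Cox7b. The other members without overlap were Cox4i1 at -0.19, Cox8a at -0.16, Cox6a1 at -0.15 and Cox5b at -0.13. Cox5a differed by -0.11 with overlap. Cox4i1 and Cox5a join the mitochondrially coded core early in assembly, Cox5b holds a zinc ion, and Cox6a1 and Cox8a are small membrane subunits. Cox6b1, which faces the space between the membranes, differed by -0.06 and by 0.001 within slide 1.

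Cox7c was higher in knock-in. Its brightest probe (chromosome 13, 86186301 to 86186360) read 5.28, 5.29 and 5.18 in knock-in, against 5.25, 5.07 and 5.05 in wild type, a difference of 0.13 (SE 0.10, limma's adjusted p = 0.618) with overlap through wild-type replicate 1. Within slide 1 it was 0.20. The other 2 Cox7c probes gave the opposite sign, as described with the probes below.

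The ATP synthase consists of a catalytic F1 head and a membrane part, Fo, joined by stalks. All 14 of its genes read lower in knock-in, against 59.2% of all genes, from -0.32 to -0.08 with a median of -0.19. Wholly below wild type were 5 of the 14, against 12.5% of all genes. Without wild-type replicate 2 the median was -0.09 and 11 of 14 read lower, with Atp5d at 0.04, Atp5k at 0.03 and Atp5e at 0.0008. The 5 F1 genes had a median of -0.23, the 2 genes of the proton-carrying c ring -0.20, and the 7 genes of the stalk and membrane part -0.15. Within slide 1 these medians were -0.07, -0.04 and -0.05, close to the -0.03 of all genes, and 12 of the 14 read lower.

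The α, β and γ subunits of F1 had the smallest p-values of the complex. Atp5a1, the α subunit (chromosome 18, 78021546 to 78021605), read 6.29, 6.23 and 6.29 in knock-in, against 6.68, 6.61 and 6.48 in wild type. The groups stood clearly apart, and here wild-type replicate 1, not 2, was the highest. The difference was -0.32 (SE 0.10, 95% interval -0.56 to -0.08), a 0.800-fold level, with an unadjusted p = 0.0155 and limma's adjusted p = 0.415. It was -0.31 without wild-type replicate 2 and -0.21 (SE 0.11) within slide 1.

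Atp5b, the catalytic β subunit (chromosome 10, 127527255 to 127527314), read 7.57, 7.49 and 7.45 in knock-in, against 7.89, 7.79 and 7.58 in wild type (-0.25, SE 0.12, limma's adjusted p = 0.482). The wild-type array of slide 1 was nearly level with knock-in replicate 1, and within slide 1 the difference was -0.07. Atp5c1, the γ subunit that turns inside the head (chromosome 2, 9977788 to 9980644, a probe across an exon junction), read 5.97, 5.89 and 5.86 in knock-in, against 6.17, 6.24 and 5.98 in wild type (-0.23, SE 0.11, limma's adjusted p = 0.490), and the difference within slide 1 was -0.08. The smaller F1 genes Atp5d and Atp5e differed by -0.10 and -0.19 with overlap, and Atp5e was 0.09 within slide 1.

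Atp5g1 and Atp5g3 encode the same mature c subunit with different import signals. They differed by -0.19 and -0.22, the second without overlap. Taken within each array, Atp5g1 minus Atp5g3 differed by 0.03 between groups with overlap, a pair picked after its values were seen. In the stalk and membrane part, Atp5l, subunit g, lay wholly below wild type at -0.17, and the others overlapped: Atp5j2 -0.22, Atp5h -0.18, Atp5o -0.15, Atp5k -0.11, Atp5j -0.10 and Atp5f1 -0.08. Atp5o is the oligomycin-sensitivity protein that links the stalk to the head, Atp5f1 and Atp5h build the outer stalk, and Atp5k and Atp5l sit where synthase dimers meet.

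**Figure D2:**
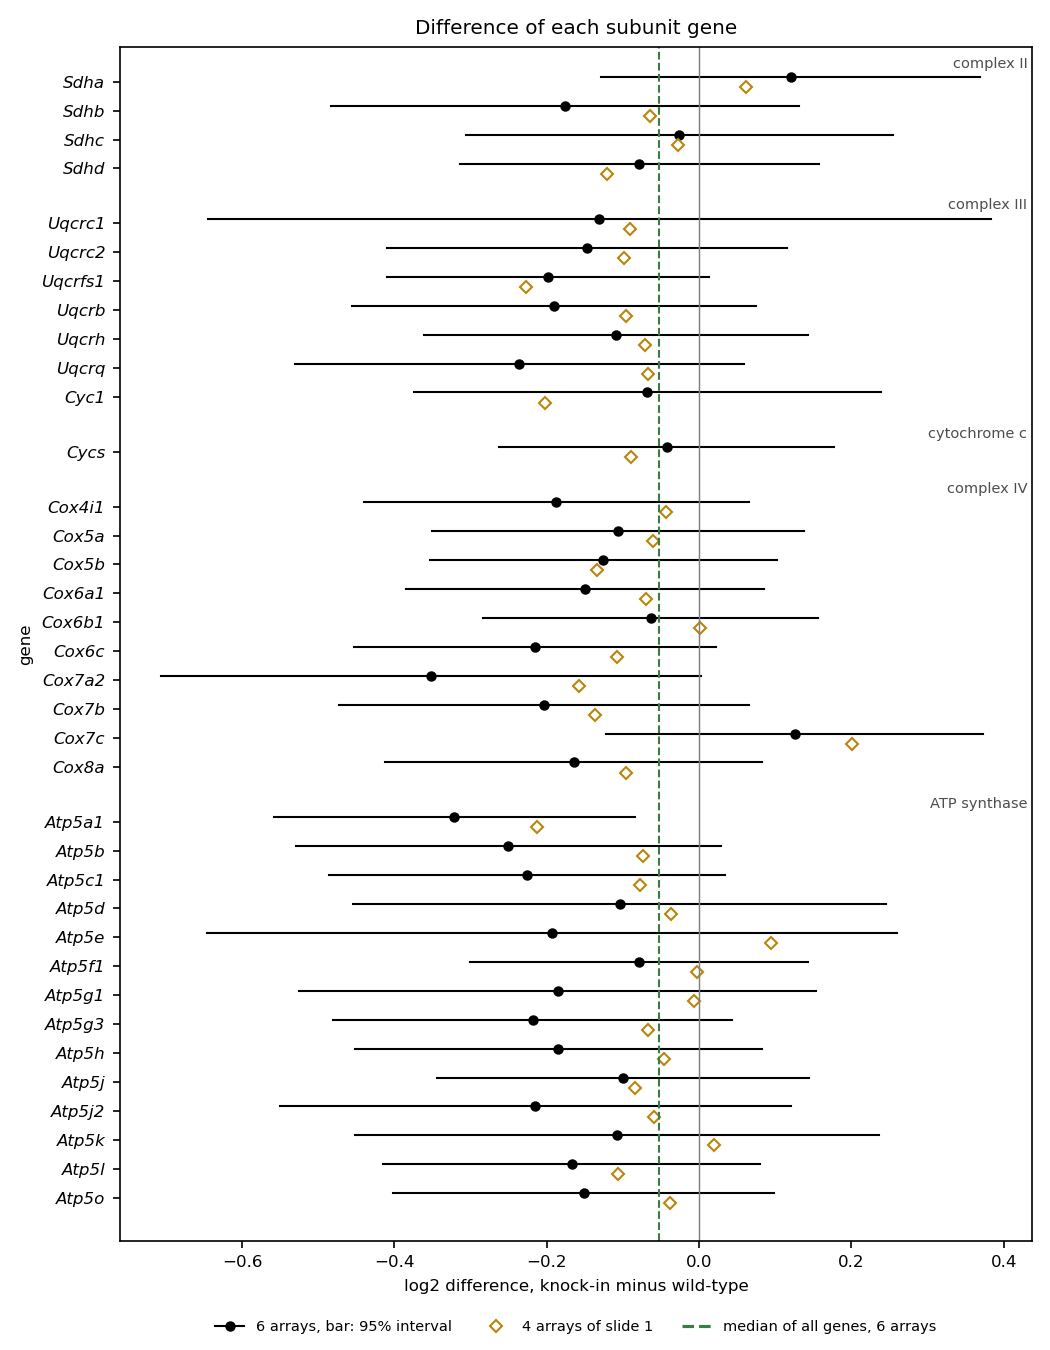
Log2 difference of each gene, knock-in minus wild type, over 6 arrays (black points, with limma's 95% interval as bars) and over the 4 arrays of slide 1 (open diamonds), with the median of all 21003 genes as a dashed line. Atp5a1 alone has a bar that leaves out 0, and most diamonds lie nearer to 0 than the points.

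Set side by side, complexes III and IV and the ATP synthase had like medians on most arrays, and the knock-in arrays lay lower for them than for complex II. The medians of complex III on the knock-in arrays, as deviations from the mean of 6 arrays, were -0.09, -0.09 and -0.06, against -0.04, 0.24 and 0.02 in wild type. For complex IV they were -0.07, -0.09 and -0.08, against 0.06, 0.19 and -0.003. For the ATP synthase they were -0.03, -0.09 and -0.15, against 0.04, 0.22 and -0.04. Complex II gave 0.02, -0.03 and -0.05 in knock-in, against -0.05, 0.14 and 0.01 in wild type, so that its groups overlapped, as did those of the ATP synthase through wild-type replicate 3.

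Differences between complexes within an array remove what the complexes share, but not differences in probe signal between them. Signal percentiles over all genes were 88.1 to 96.6 in complex II and 89.0 to 98.6 in complex III. They were 85.4 to 99.995 in complex IV and 91.4 to 99.3 in the ATP synthase. With quantile normalization the medians of complexes II, III and IV and the ATP synthase were 0.02, -0.07, -0.01 and -0.08. The part of probe signal in these contrasts was not tested. The ATP synthase minus complex II averaged -0.07 ± 0.03 in knock-in and 0.04 ± 0.07 in wild type (SD, n = 3 each), a difference of -0.11 without overlap. Complex IV minus complex II and complex III minus complex II differed by -0.11 and -0.10, also without overlap. Within slide 1 the ATP synthase minus complex II differed by -0.02, complex IV minus complex II by -0.05 and complex III minus complex II by -0.08, and without wild-type replicate 2 by -0.09, -0.11 and -0.07. For the ATP synthase minus complex IV, the ATP synthase minus complex III and complex IV minus complex III the differences were 0.001, -0.01 and -0.01, with overlap, and 0.03, 0.05 and 0.03 within slide 1. The complex II value rests on 4 genes, and within complex II Sdha minus Sdhb differed by 0.30 between groups, or 0.13 within slide 1, a pair picked after its values were seen.

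**Figure D3:**
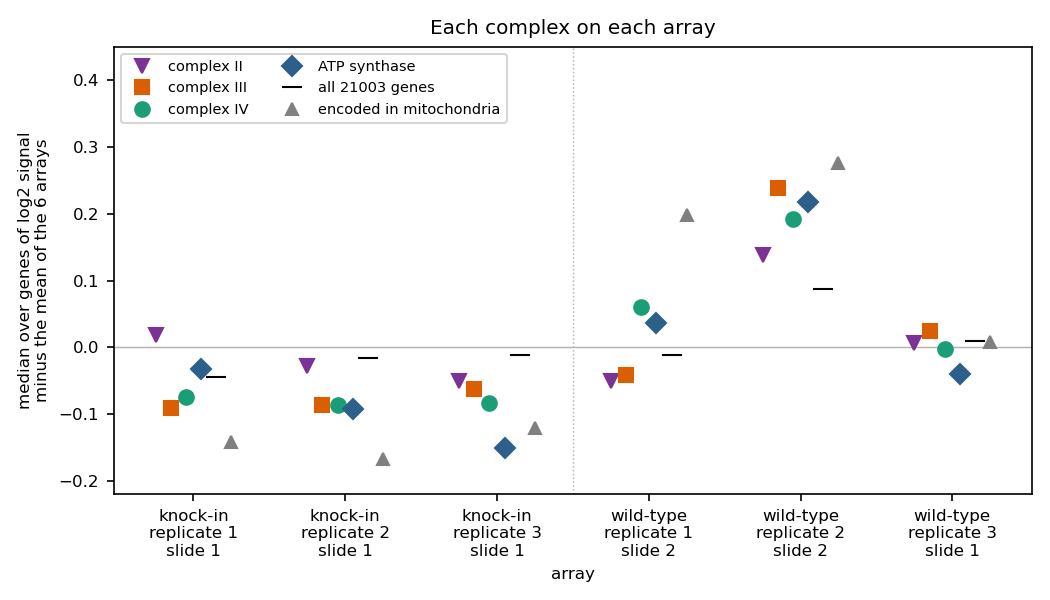
Median over the genes of each complex of the log2 signal minus the mean of the 6 arrays (vertical axis), for the 3 knock-in arrays and then the 3 wild-type arrays, with the 13 mitochondrially coded genes and all 21003 genes beside them. Wild-type replicate 2 is the highest array for each set of genes, and wild-type replicate 3, on the slide of the knock-in arrays, lies between -0.04 and 0.02 for each.

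The array carried 61 probes for the 36 genes, each well above background on all 6 arrays, and 57 of 61 read lower in knock-in with a median of -0.15, against 17105 of 29350 probes and a median of -0.05 in all. Of the 17 genes with more than 1 probe, 14 had all probes lower and 3 had probes of both signs (17.6%, against 44.2% of 5942 such genes). The 6 probes of Atp5l differed by -0.19 to -0.11. The brightest Cox5b probe is annotated on chromosome 15 at 100805467 to 100805526, away from the chromosome 1 position of the other Cox5b probe, which differed by -0.10. Where copies of a gene share sequence, as such annotation leaves possible, the signal of a probe cannot be assigned to 1 locus.

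The genes with probes of both signs were Sdhb, Cox7c and Atp5j. The Sdhb probe used starts at base 1017 of the transcript and differed by -0.18, and the other starts at base 590 (chromosome 4, 140529606 to 140529665) and differed by 0.07. The Cox7c probe used starts at base 40 and differed by 0.13, whereas those starting at bases 345 and 389 differed by -0.13 and -0.31, each wholly below wild type. The probe at base 389 was much dimmer, with a mean log2 signal of -3.42, against 5.19 at base 40 and 5.02 at base 345. For Atp5j the dimmer probe, starting at base 36 (chromosome 16, 84834389 to 84834448), differed by 0.32. The first 30 of the 60 bases of the Sdhb and Cox7c probes are given so that the target of each value can be located.
Sdhb, base 1017, used: tgtcaaacagctggagtctccctaagtaca
Sdhb, base 590: aaatccattgagccttatctgaagaagaag
Cox7c, base 40, used: tgtagaaaggagagttaggtggtacggcca
Cox7c, base 345: aaagtttaagagatgatctgaaaattggat

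Position along the transcript was compared for the 7 genes with probes on the same transcript at least 100 bases apart, a comparison chosen after these values were seen. The upstream probe gave the higher difference in 7 of 7 genes, with a median gap of 0.13 (0.04 within slide 1). Over all 3340 such pairs of probes, counted per gene and transcript, it did so in 57.0%, with a median gap of 0.05 (0.04 within slide 1). The probes of a pair can differ widely in mean log2 signal, as in Cycs (5.19 upstream, -2.21 downstream) and Cox7c (5.19 and -3.42), which had the largest gap, 0.43. Whether probe position has a part in the differences above was not tested.

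The mitochondrially coded partners are described next because complexes III, IV and V need both genomes. Of 13 such genes, 12 read lower and 11 lay wholly below wild type, with a median of -0.29. Over all genes 59.2% read lower and 12.5% lay wholly below. In the brightest of 10 groups of genes by signal, which held nearly all of the 13, these shares were 79.5% and 19.2%. An unadjusted p under 0.05 was reached by 6, each lower, against 6.39% lower over all genes. None passed limma's adjusted threshold (lowest adjusted p 0.414). The 6 that belong to complexes III to V all lay wholly below wild type. CYTB, the cytochrome b of complex III (mitochondrial genome, 15099 to 15158), read 8.82, 8.79 and 8.80 in knock-in, against 9.14, 9.23 and 8.96 in wild type (-0.31, SE 0.11, limma's adjusted p = 0.433). The complex IV core genes COX1, COX2 and COX3 differed by -0.30, -0.27 and -0.29, and ATP6 and ATP8 by -0.26 and -0.19. Within slide 1 the median of the 6 was -0.13, and all 6 read lower. On the arrays, the median of the 13 genes was -0.14, -0.17 and -0.12 in knock-in, against 0.20, 0.28 and 0.01 in wild type, so that both slide 2 arrays were high and not replicate 2 alone. The ND3 probe is annotated on chromosome 1, where the nuclear genome holds a copy of mitochondrial sequence, and its value is uncertain for that reason.

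The rest of the pathway was read list by list. The 37 nuclear genes of complex I read like those of complexes III to V, with 35 lower, 14 wholly below wild type and a median of -0.15 (-0.07 within slide 1). Over all genes, 59.2% read lower and 12.5% lay wholly below wild type. Of 8 further subunits of complexes III to V, 7 read lower with a median of -0.12 (-0.04 within slide 1); Atp5mpl, a small membrane subunit of the synthase, had the smallest p (-0.30, SE 0.11, limma's adjusted p = 0.438). Genes for mitochondrial import and the outer membrane read lower in 12 of 16, with a median of -0.11, (-0.10 within slide 1), and Vdac1 and Vdac3, channels of the outer membrane, differed by -0.31 and -0.22 without overlap. Assembly factors of complexes II to V read lower in 20 of 32 with a median of -0.05 (-0.09 within slide 1), among them Cox11, a copper-handling factor for complex IV, at -0.32. Citric acid cycle enzymes read lower in 10 of 17, with a median of -0.03 (-0.08 within slide 1). Within slide 1 these lists thus lay about as low as the 36 subunit genes, at -0.07, or lower, except the 8 further subunits at -0.04. The regulators of respiratory genes read lower in 9 of 13 with a median of -0.05 (-0.03 within slide 1), and Tfam, which packages and transcribes mitochondrial DNA, was higher on each knock-in array (0.30, SE 0.13, limma's adjusted p = 0.463). None of the genes of these lists passed limma's adjusted threshold, while 3 of them had an unadjusted p under 0.05, by which they are mentioned: Atp5mpl and Cox11 lower, and the COX1 translation factor Taco1 higher (0.22).

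Isoforms of complex IV subunits that are best known from muscle or lung were also on the array. Cox4i2, Cox6a2, Cox7a1 and Cox8b were above background on all 6 arrays and differed by -0.01, -0.07, -0.001 and 0.15, each with overlap. Cox6b2 and Cox7b2, forms best known from testis, were also above background on all 6 arrays and had the smallest p of these isoforms. Cox6b2 was higher on each knock-in array (0.14, SE 0.12, limma's adjusted p = 0.632), and Cox7b2 differed by 0.79 with overlap (SE 0.40, limma's adjusted p = 0.4996). Atp5g2, the other c-subunit gene, differed by -0.11 with overlap. Cox8c was above background on 0 arrays, and the testis form of cytochrome c, Cyct, on 1 knock-in array and 0 wild-type arrays. Among the 6 tissue isoforms of complex IV tested, 3 read lower and the median was 0.07.

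The difference over all genes varied with probe brightness, and not in 1 direction. The 36 probes ranged in processed signal from 7920 to 513447, and with all genes split into 10 groups of equal size by signal, 33 of the 36 lay in the brightest. In that group the median difference was -0.10, 79.5% of genes read lower and 19.2% lay wholly below wild type, whereas group 6, near the middle, had a median of -0.01. The dimmest groups, 1 and 2, were low as well, with medians of -0.08 and -0.09. Wild-type replicate 2 deviated by 0.17 in the brightest group, by 0.09 and 0.10 in groups 1 and 2, and by 0.05 in group 6. Within slide 1 the brightest group had a median of -0.05, beside -0.07 for the 36 genes. The part of brightness in the subunit differences was not tested beyond these values and the normalizations above.

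**Figure D4:**
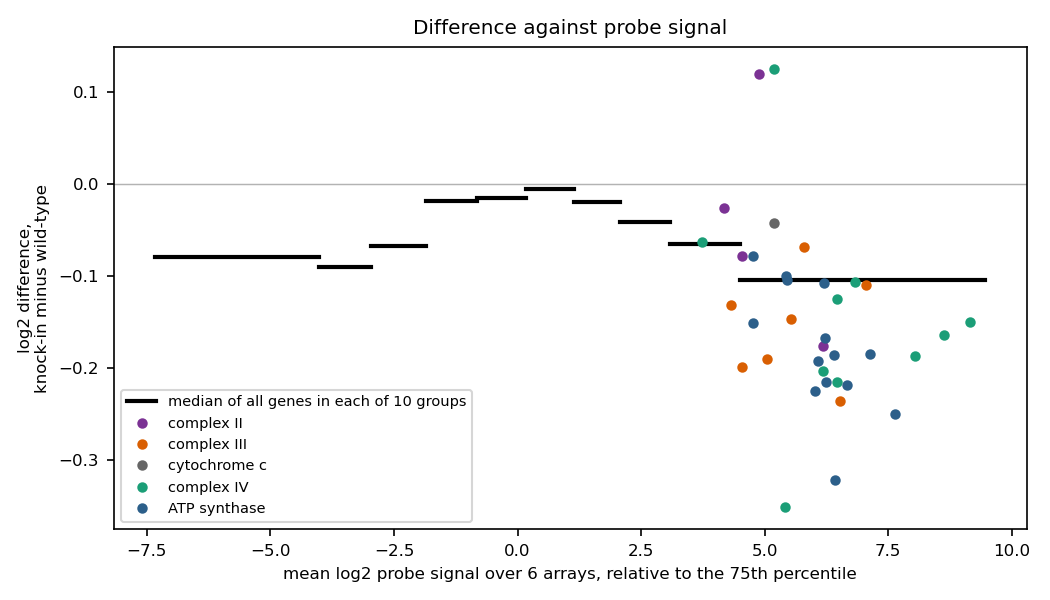
Log2 difference, knock-in minus wild type, of each of the 36 genes (coloured by complex) against its mean log2 probe signal over 6 arrays, with the median of all genes in each of 10 groups of signal as black bars. The bar of the brightest group is at -0.10, and most subunit genes lie below that bar, with Sdha and Cox7c above 0.

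Markers of cell and tissue types were read beside these values. Of 12 neuron and synapse markers, all passed the detection filter, 7 read lower and the median was -0.11 (-0.10 within slide 1), and their summed signal, in units of the 75th percentile, was 663 to 758 in knock-in and 686 to 849 in wild type. All 8 oligodendrocyte markers were tested, 7 of them higher, with a median of 0.26 (0.27 within slide 1) and sums of 197 to 270 in knock-in and 167 to 240 in wild type. The 12 striatal markers were all higher, with a median of 0.83 (1.70 within slide 1), but their sums spread from 58.3 to 322 in knock-in and from 51.3 to 227 in wild type. Astrocyte and microglia markers, 8 of 8 each, had medians of -0.04 and 0.12 (0.12 and 0.09 within slide 1, where the astrocyte sign turned), with sums of 520 to 543 and 183 to 191 in knock-in and 550 to 621 and 184 to 209 in wild type. Endothelial and mural markers had a median of -0.03 (-0.06 within slide 1) over 7 of 8 tested, with sums of 3.16 to 4.83 in knock-in and 4.33 to 5.69 in wild type, and Tek did not pass the detection filter. Choroid plexus markers had a median of 0.63 over 6 of 9 (1.45 within slide 1), with sums of 0.367 to 1.66 in knock-in and 0.304 to 1.70 in wild type, with Aqp1, Kcne2 and Slc4a5 not passing. On wild-type replicate 2 the neuron and synapse markers deviated from the mean of 6 arrays by a median of 0.18 and the oligodendrocyte markers by -0.39. The part of cell and tissue makeup in the subunit differences was not tested.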

How the data were processed

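Per the file headers, Agilent Feature Extraction 10.7.3.1 quantified the spots, and the authors deposited each spot's intensity: raw mean and median, local background, and a background-subtracted, detrended processed intensity, not normalized between arrays. The authors also deposited a table of log2 values, whose columns rank spots as the raw median does and have medians of 6.55 to 6.56; the sources used here do not give its normalization.

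Of 62976 spots, 59305 were not controls, holding 55681 probes. Log2 processed intensities were scaled by each array's 75th percentile, and probes well above background on at least 3 arrays were kept (29350, for 21003 genes, brightest probe each). Outlier-flagged spots were left out, except where all spots of a probe were flagged on an array, in which case they were kept. Saturated spots, of which there were 0, would have been kept. Probes were named by the listed symbols (61), by RefSeq accession (27179), current symbol (3576) or older symbol (565), or kept the file's name (24300); the RefSeq table of GRCm38.p6 gave names and promoters, and probe coordinates are mm9. The contrast of knock-in minus wild type was fitted by limma 3.58.1 under R 4.3.3 (lmFit, eBayes, two-sided, Benjamini-Hochberg over all genes). The fit was checked on simulated arrays with larger changes than those of the subunit genes and without a slide effect. That check does not cover differences as small as theirs or the slide layout. For single genes, an exact permutation test of 3 against 3 arrays cannot go below p = 0.1; every gene without overlap has that value. The number of arrays limits the precision.

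The genes and lists were chosen with earlier results of these data known. Named with array values are, per complex, the 3 genes of smallest unadjusted p, cytochrome c, and Cox7c, whose probes differ in sign. CYTB is also given with array values, though it is not among the 2 mitochondrially coded genes of smallest p. The 6 mitochondrially coded genes of complexes III to V are all named. Of each other list at most the 2 genes of smallest p are named, with isoform partners. Alternatives covered background correction, normalization, the authors' table, the detection filter, probe choice, slide, replicate number, variance model and leaving out each array. A list of cerebellar and hindbrain markers is not reported here.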

Additional observations from a re-analysis of the deposited data

How the results depend on the processing

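No subunit gene passed limma's adjusted p of 0.05 under any of the 14 other settings or the 6 fits that left out an array, with the lowest adjusted p at 0.245 with normexp and 0.973 with slide as a fixed block. Against 2 genes past that threshold among all genes, there were 1 with normexp, 0 with the authors' table, without the filter or with detection on all arrays, 5 with the mean of probes, slide as a random block or slide 1 alone, 7 with slide as a fixed block, 6 with an intensity trend, and 0 to 3 when an array was left out. Subunit genes wholly below wild type, 16 of 36, were 10 with normexp (18.9% of all genes), 4 with quantile (10.1%), 5 with cyclic loess (9.42%), 5 with the authors' table (9.58%), 26 within slide 1 (36.4%) and 16 to 25 when an array was left out (17.3% of all genes at the 25, without knock-in replicate 1). Those lower at an unadjusted p under 0.05 were 1 in the main fit, against 6.39% of all genes. They were 0 with cyclic loess (4.98% of all genes), the authors' table (5.38%) or the slide block (2.18%). They were 2 with detection on all arrays (6.82%), a random slide block (6.66%) or array weights (7.60%), and 7 with an intensity trend (6.56%). When an array was left out they were 0 to 7. The 0 came without knock-in replicate 2, where 2.82% of all genes were lower at that p, and the 7 without wild-type replicate 3, where 9.34% were. The median of the 36 genes, -0.16, was -0.053 with quantile, -0.032 with the authors' table, -0.070 with the slide block or slide 1 alone, and -0.194 to -0.086 when an array was left out. Complex II was 0.029 with the authors' table. Complex IV was -0.012 with quantile, -0.035 with cyclic loess, -0.023 with the authors' table and -0.083 with the slide block or slide 1. The ATP synthase was -0.052 with the authors' table and -0.053 with the slide block or slide 1. Cycs turned to 0.033 with quantile, 0.024 with cyclic loess and 0.022 with the authors' table. Over the 14 settings complex III (-0.148 to -0.061), complex IV (-0.159 to -0.012) and the ATP synthase (-0.189 to -0.052) kept their sign. Without wild-type replicate 2 complexes II and III, complex IV and the ATP synthase were -0.0014, -0.064, -0.108 and -0.086. The causes were not tested.

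The labels number replicates 1 to 3 in both groups. Same-numbered arrays correlated by 0.40, -0.02 and 0.25 in their deviations from the group means, and differently numbered arrays by -0.40 to 0.15. These values do not settle whether the numbers mark pairs. The labels name no pairing, and the main fit used none. With the replicate block 0 genes passed the adjusted threshold, the median of the 36 genes was -0.158, and 1 of them was lower at an unadjusted p under 0.05 (lowest adjusted p 0.431).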
